A study of Mus musculus with 12 samples.

Results

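Semaphorins, plexins and neuropilins were examined in dissected cochlear epithelium of P6 mice, comparing *Sox2*+/+ controls with mutant littermates of genotype *Sox2*CreER/+ *Jag1* fl/fl. The members were taken by name, as every row of the deposited count table whose symbol is a class 3 to 7 semaphorin, a plexin of class A to D, *Nrp1* or *Nrp2*, which gave 31 of 28686 symbols. These are 20 semaphorins, 9 plexins and 2 neuropilins. RNA-seq, which counts the reads that fall on each gene, was carried out on 6 mutants and 6 controls whose strain the sample labels give as C57BL/6;129SV, while the study's methods give C57bl6/J for the Cre line and FVB/n for the floxed line. Both groups had received tamoxifen at P0 and P1. In the mutants the tamoxifen-inducible Cre is made from the *Sox2* locus, which is active in supporting cells, and both *Jag1* alleles are floxed. The controls carried no Cre and either 1 or 2 floxed *Jag1* alleles. The Cre allele takes the place of a working copy of *Sox2*, so loss of *Jag1* and loss of that copy cannot be told apart here, and the dissected tissue also holds cells in which the Cre is not active.

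Semaphorins are secreted or membrane-bound guidance cues. Plexins are their receptors, whose intracellular part acts on small GTPases to reshape the cytoskeleton, and neuropilins are co-receptors that hold class 3 semaphorins on class A plexins and also bind VEGF. In the inner ear the family is best known for steering spiral ganglion axons. *Sema3f* acting through *Nrp2* holds axons back from the outer hair cell region, and *Sema5b* trims branches of spiral ganglion axons. *Jag1* is a Notch ligand, and the comparison of mutants with controls asks which members are measured at another level when it is lost from supporting cells after birth.

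The sequences just before the transcription starts of *Plxnb3*, *Sema4f* and *Plxnb2* are shown because these 3 genes are among the 5 members whose mutant and control values did not overlap, and because a start was given for them in RefSeq on GRCm38.p6. Each window holds the 250 bases before the start, 5′ to 3′ on the strand of the gene, and capitals mark a match to one of the motifs searched on both strands. For *Plxnb3* the window is chrX:73756853-73757102 on the plus strand, for *Sema4f* chr6:82939770-82940019 on the minus strand, and for *Plxnb2* the upstream one of its 2 starts, chr15:89180789-89181038 on the minus strand. The GENCODE annotation begins *Plxnb3* at 73757090, so the last bases of its window lie inside the gene as annotated there.
Plxnb3: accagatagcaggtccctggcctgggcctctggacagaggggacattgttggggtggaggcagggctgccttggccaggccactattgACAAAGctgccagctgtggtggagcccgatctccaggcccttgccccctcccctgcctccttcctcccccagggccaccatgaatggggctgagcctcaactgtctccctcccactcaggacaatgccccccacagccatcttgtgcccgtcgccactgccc
Sema4f: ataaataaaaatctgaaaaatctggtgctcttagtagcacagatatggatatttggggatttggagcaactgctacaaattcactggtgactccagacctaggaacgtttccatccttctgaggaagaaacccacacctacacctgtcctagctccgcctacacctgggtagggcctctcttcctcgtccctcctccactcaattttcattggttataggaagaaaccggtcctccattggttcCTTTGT
Plxnb2: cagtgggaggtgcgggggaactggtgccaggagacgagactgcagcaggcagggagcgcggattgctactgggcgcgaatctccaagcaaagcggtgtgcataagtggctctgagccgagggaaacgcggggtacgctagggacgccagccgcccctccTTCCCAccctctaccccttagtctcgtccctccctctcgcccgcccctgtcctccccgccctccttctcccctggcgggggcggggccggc

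The capitals are ACAAAG, a site of Sox factors, in *Plxnb3*, the same site on the opposite strand (CTTTGT) in *Sema4f*, and the RBPJ site TGGGAA on the opposite strand (TTCCCA) in *Plxnb2*. The window of the other *Plxnb2* start holds 0 matches to the 4 motifs searched. RBPJ is the DNA-binding partner of Notch. Of the 31 members, 26 were matched to 37 such windows, and *Plxna1*, *Plxna4*, *Sema3b*, *Sema3f* and *Sema6a* were not matched. ACAAAG was present in 5 of the 37 windows (13.5%), against 16.5% of the 32851 windows of all genes. TGGGAA was present in 6 (16.2%), against 21.6% of all. The Hes and Hey site CACGCG was present in 5 (13.5%), against 7.62% of all, and CACGTG, an E-box bound by Hes and Hey repressors and other factors, in 2 (5.41%), against 6.02%. None of the motifs overlaps another in the 3 windows printed. These matches describe letters in a window and say nothing of whether a factor binds there.

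Total counts lay between 28498549 and 34430252 in controls and between 31899265 and 36134983 in mutants. *Jag1* was lower in each mutant, at 36.4 ± 6.56 CPM (the count scaled to a common library size with TMM normalization, mean ± SD, n = 6) against 102 ± 14.7 in controls (log2 fold change -1.48, SE 0.13, edgeR adjusted p = 0.000258). Markers of other cells differed between the libraries. The summed level of 13 Schwann cell markers lay between 624 and 1668 CPM in controls (median 1102) and between 1380 and 6624 in mutants (median 2588), with the highest values in mutants 1 (6624) and 2 (5061). The summed level of 15 neuron markers lay between 314 and 499.9 CPM in controls (median 366) and between 386 and 1715 in mutants (median 767), with the highest in mutant 4 (1715), followed by mutants 1 (935) and 2 (898). Of the marker genes, 12 of 13 for Schwann cells and 13 of 15 for neurons were higher in mutants at an unadjusted p under 0.05, and 0 in either list passed the adjusted threshold. Supporting cell markers had 0 higher and 4 lower of 12 at that unadjusted threshold, hair cell markers 2 higher of 12, macrophage markers 3 lower of 8, mesenchyme markers 2 lower of 10, and endothelial and red blood cell markers 1 lower of 8 and 1 lower of 5. No marker in any list was at 0 in any library. In a bulk sample such as this, more cells of a type and more RNA per cell cannot be told apart.

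All 31 members were detected and passed the filter on low counts, a mean of at least 5 counts over the 12 libraries. Their order was compared as CPM per kilobase of exon, since longer transcripts collect more reads. The receptors stood at the top. *Plxnd1*, the receptor through which *Sema3e* acts on endothelium and neurons, had the highest level in controls at 49.6 ± 3.51 CPM per kilobase, followed by *Plxnb2*, the receptor of *Sema4c* and *Sema4g*, at 44.9 ± 1.90 (SD, n = 6). The next level was well below these, and in it no gene differed from the next one down by more than the larger SD of the pair. The genes at it were *Sema3f* at 22.0 ± 1.97, *Plxna1* at 20.9 ± 1.88, *Plxnb1* at 19.4 ± 1.14 and *Nrp1* at 19.2 ± 0.978 CPM per kilobase.

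Within each class 1 member led in controls. *Sema3f* led the secreted class 3 ligands, of which the next was *Sema3d* at 8.49 ± 1.62 CPM per kilobase. *Sema4c* led class 4 at 12.6 ± 1.1, *Sema5a* class 5 at 6.56 ± 1.09 and *Sema6d* class 6 at 14.6 ± 1.82, with *Sema7a*, the lone GPI-anchored member, at 13.3 ± 0.745. Among receptors *Plxna1* led class A, *Plxnb2* class B and *Nrp1* the neuropilins, where *Nrp2* followed at 16.5 ± 1.88. The 4 lowest were *Plxnb3* at 1.23 ± 0.287, *Sema4f* at 1.09 ± 0.0696, *Sema4a* at 1.05 ± 0.0968 and *Sema3e* at 0.647 ± 0.180 CPM per kilobase. Of the 30 steps between neighbours in this order, 12 were larger than the larger SD of the pair and 18 were not. Lengths were taken as all exon bases of a gene. With the length of the longest transcript instead, 27 members changed rank, by at most 5 places, and *Nrp1* stood at 51.6 CPM per kilobase beside *Plxnb2* at 53.3 and *Plxnd1* at 52.4.

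**Figure D1:**
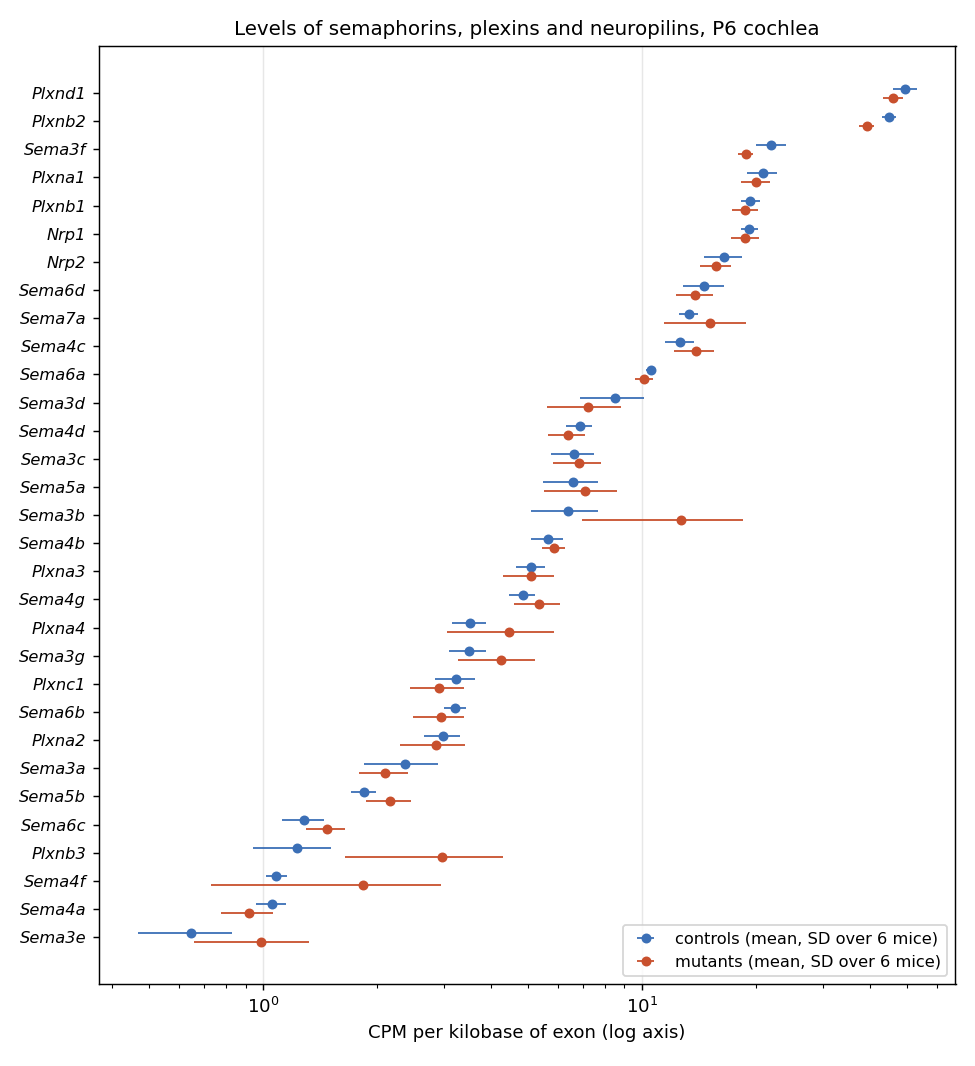
Level of each of the 31 genes in CPM per kilobase of exon on a log axis, ordered by the control mean. Points are means and bars the SD over 6 mice, blue for controls and orange for mutants. *Plxnd1* and *Plxnb2* are the highest in both genotypes. The widest gaps between the genotypes are at *Plxnb3*, *Sema3b* and *Sema4f*, whose mutant bars are also the widest, followed by *Sema3e*.

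Summed over the family, plexins stood at 151 ± 6.19 CPM per kilobase in controls and 142 ± 8.43 in mutants, semaphorins at 134 ± 5.22 and 140 ± 12.6, and neuropilins at 35.7 ± 2.33 and 34.5 ± 2.85 (SD, n = 6). In each of the 3 sums the ranges of the genotypes overlapped.

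No member passed the adjusted threshold between genotypes. The edgeR quasi-likelihood test called 35 of 18459 genes at an adjusted p under 0.05 (0.19% of genes tested), 20 higher (0.108%) and 15 lower (0.0813%) in mutants, and 0 of 31 members. At an unadjusted p under 0.05 the fit held 8 of 31 members (25.8%), against 10.6% of genes tested. Of these 8, 6 were higher in mutants, against 6.52% of genes tested, and 2 were lower, against 4.04%. The 6 higher were *Plxnb3*, *Sema3b*, *Sema4f*, *Sema3e*, *Sema5b* and *Sema3g*, and the 2 lower were *Sema3f* and *Plxnb2*. DESeq2, which called 619 genes (3.35%), called 4 members, *Plxnb3* and *Sema3b* higher (2.56% of genes tested were called higher) and *Sema3f* and *Plxnb2* lower (0.791% lower). It held 9 members at an unadjusted p under 0.05 (10.8% of genes tested), and limma-voom called 19 genes (0.103%) and 0 members, with 7 members at an unadjusted p under 0.05 (9.96%). Mutant and control values did not overlap in 5 members (16.1%), against 0.997% of genes tested. These were *Sema3b*, *Sema4f* and *Plxnb3*, in which every mutant was above every control (0.618%), and *Sema3f* and *Plxnb2*, in which every mutant was below (0.379%). Each member held at least 127 counts in every library, while the genes tested went down to a mean of 5 counts. The shares of members and of all genes tested were therefore not matched on counts. The median log2 fold change of the members was -0.04, with 14 above and 17 below 0, against 0.00 for all genes tested, and the median size without its sign was 0.14 against 0.09.

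**Figure D2:**
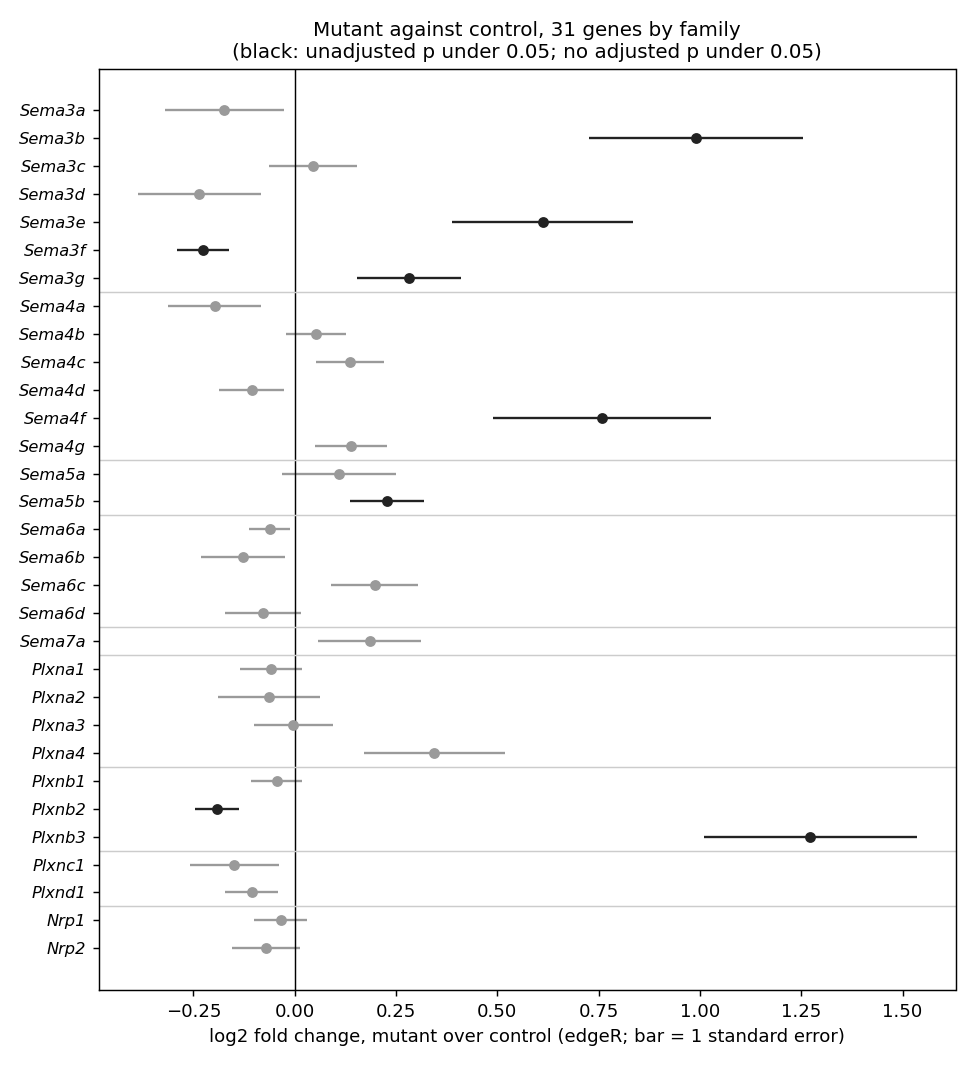
Log2 fold change of each gene, mutant over control, from edgeR, grouped by class from secreted semaphorins at the top to neuropilins at the bottom. Bars are 1 SE, and black marks an unadjusted p under 0.05. *Plxnb3* (1.27), *Sema3b* (0.99) and *Sema4f* (0.76) lie farthest to the right, and most others lie close to 0.

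Of the 7 secreted class 3 semaphorins, most of which signal through neuropilins and class A plexins, 3 were higher (6.52% of genes tested) and 1 lower (4.04%) at an unadjusted p under 0.05. *Sema3b*, also known as a tumour suppressor in other tissues (chr9:107597674-107609229 on the minus strand, GRCm38), ranged from 20.8 to 36.3 CPM in controls, with a median of 31.9. In mutants it ranged from 37.9 to 101 CPM, with a median of 47.1. Mutants 1 (101) and 2 (90.7) stood well above the other 4 mutants, which lay between 37.9 and 49.1, just above the highest control. The means were 30.6 ± 6.15 and 60.7 ± 27.6 CPM (SD, n = 6), a log2 fold change of 0.99 (SE 0.26, edgeR p = 0.00277, adjusted p = 0.126), and the exact two-sided permutation test gave p = 0.00216, the smallest that 924 divisions of the mice allow. Any gene whose groups do not overlap reaches this permutation p, so it adds nothing to the separation itself. The same holds for *Sema3f*, *Sema4f*, *Plxnb2* and *Plxnb3* below. In *Sema3f* and *Plxnb2* that separation depended on the normalization. Per kilobase of exon its rank among the 31 members went from 16 in controls to 11 in mutants.

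*Sema3f*, the ligand that acts on spiral ganglion axons through *Nrp2* (chr9:107681500-107710475 on the minus strand, GRCm38), ranged from 102 to 127 CPM in controls, with a median of 116, and from 91.3 to 101 in mutants, with a median of 99.9. The groups did not overlap, but the highest mutant (101.48) and the lowest control (102.40) were close, and with upper-quartile normalization they overlapped. The means were 114 ± 10.2 and 97.7 ± 4.5 CPM (log2 fold change -0.23, SE 0.06, edgeR p = 0.00302, adjusted p = 0.129, exact permutation p = 0.00216). For its co-receptor *Nrp2* the fold change was -0.07 on the log2 scale (edgeR adjusted p = 0.874).

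*Sema3e*, which binds *Plxnd1* without a neuropilin, ranged from 3.67 to 8.10 CPM in controls (median 6.28) and from 6.50 to 15.1 in mutants (median 8.59). The groups overlapped, and the top of the mutant range was mutant 2 alone, with the other 5 at or below 9.38. The log2 fold change was 0.61 (SE 0.22, edgeR p = 0.0156, adjusted p = 0.28, exact permutation p = 0.0281), in a gene with only 127 to 497 counts per library. *Sema3g*, a ligand of *Nrp2* known from endothelium, ranged from 14.1 to 18.6 CPM in controls (median 15.2) and from 15.2 to 27.2 in mutants (median 17.9), with log2 fold change 0.28 (SE 0.13, edgeR p = 0.0457, adjusted p = 0.457, exact permutation p = 0.0779). Only mutants 1 (21.1) and 2 (27.2) were above every control.

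The other 3 class 3 members did not pass either threshold. *Sema3a*, the classical growth cone collapse factor, was measured at 32.9 ± 7.27 CPM in controls and 29.2 ± 4.38 in mutants (log2 fold change -0.17, edgeR adjusted p = 0.799), *Sema3c*, a cue of cardiac and vascular development, at 47.2 ± 6.12 and 48.7 ± 7.02 (0.05, adjusted p = 0.949), and *Sema3d*, also a vascular and neural crest cue, at 73.0 ± 13.9 and 62.0 ± 13.7 (-0.24, adjusted p = 0.69). In each of the 3 the lowest of the 12 mice was mutant 1.

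**Figure D3:**
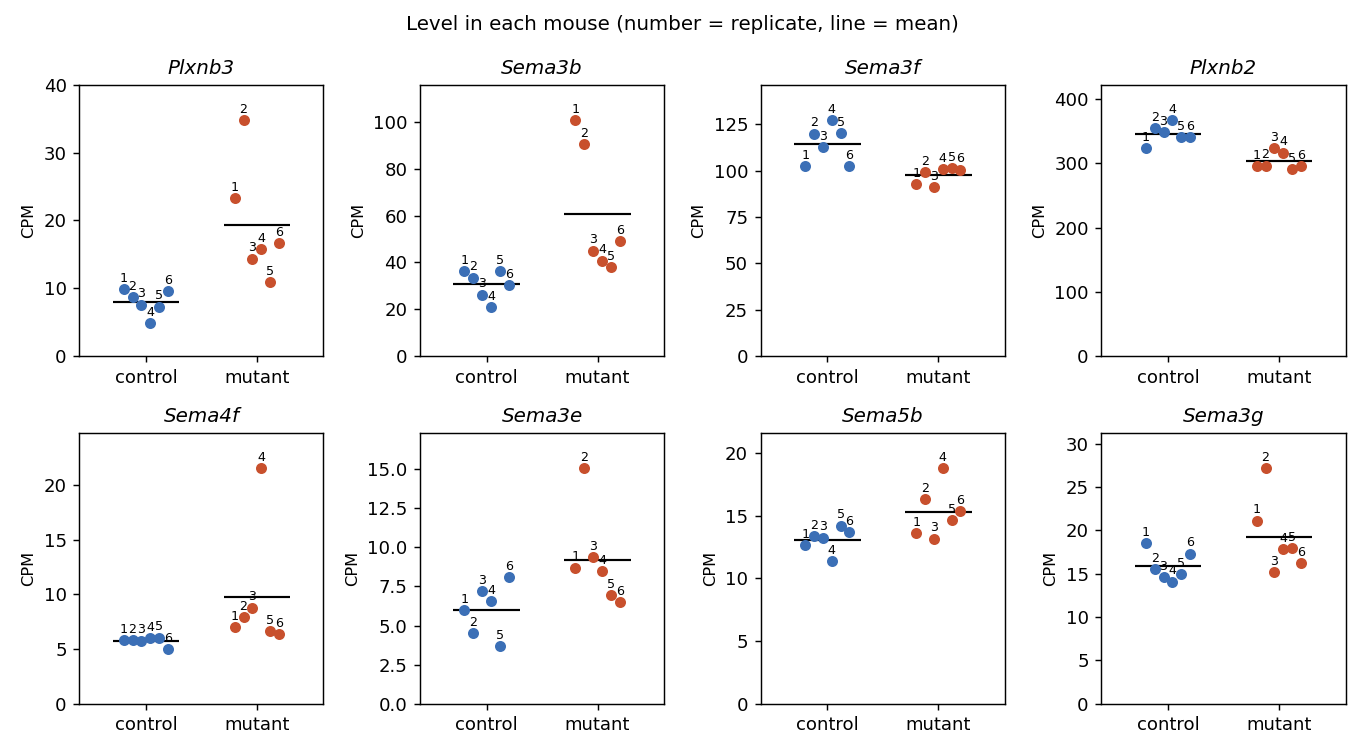
CPM in each mouse for the 8 genes with an unadjusted p under 0.05, one panel per gene with its axis starting at 0. Points carry the replicate number, which was not taken to pair controls with mutants, and lines are means. Mutants 1 and 2 are the 2 highest points for *Plxnb3*, *Sema3b* and *Sema3g*, mutant 4 is the highest for *Sema4f* and *Sema5b*, and for *Sema3f* and *Plxnb2* all 6 mutants lie below the controls by a small margin.

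Among the 6 transmembrane class 4 semaphorins, 1 was higher at an unadjusted p under 0.05 (6.52% of genes tested). *Sema4f*, which takes part in contact between Schwann cells and axons (chr6:82911885-82939769 on the minus strand, GRCm38), had nearly the same level in all controls, from 5.02 to 6.04 CPM with a median of 5.82. In mutants it ranged from 6.38 to 21.6, with a median of 7.47. Every mutant was above every control, but mutant 4 held the whole upper range (21.6) and the other 5 lay between 6.38 and 8.79. The means were 5.75 ± 0.368 and 9.72 ± 5.87 CPM (SD, n = 6), a log2 fold change of 0.76 (SE 0.27, edgeR p = 0.0141, adjusted p = 0.267, exact permutation p = 0.00216). Without mutant 4 the log2 fold change was 0.36 (SE 0.11, edgeR adjusted p = 0.162).

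The remaining class 4 members gave smaller differences. *Sema4a*, an immune and retinal semaphorin, was measured at 5.70 ± 0.523 CPM in controls and 4.97 ± 0.784 in mutants (log2 fold change -0.20, edgeR adjusted p = 0.622). *Sema4d*, the ligand of *Plxnb1*, stood at 52.6 ± 4.16 and 48.9 ± 5.59 (-0.11, adjusted p = 0.758), and *Sema4b* at 31.9 ± 3.06 and 33.1 ± 2.29 (0.05, adjusted p = 0.901). *Sema4c* and *Sema4g*, which bind *Plxnb2*, had mutant means slightly above their control means, with overlapping groups. *Sema4c* stood at 58.0 ± 5.07 and 63.7 ± 7.70 CPM (0.14, edgeR adjusted p = 0.662) and *Sema4g* at 42.1 ± 3.31 and 46.3 ± 6.53 (0.14, adjusted p = 0.679). Of the exon bases of *Sema4c*, 7.27% are shared with a gene on the opposite strand, *D430040D24Rik*, whose reads could be counted with it, and the strand setting of the counting is not given in the sources used here.

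Of the 2 class 5 semaphorins, which carry thrombospondin repeats, *Sema5b* ranged from 11.4 to 14.2 CPM in controls (median 13.3) and from 13.2 to 18.8 in mutants (median 15.0). The groups overlapped, and 4 of 6 mutants were above the highest control. The log2 fold change was 0.23 (SE 0.09, edgeR p = 0.0265, adjusted p = 0.367, exact permutation p = 0.0303). *Sema5a*, a ligand of *Plxnb3*, was measured at 123 ± 20.4 and 132 ± 28.9 CPM (0.11, adjusted p = 0.888), with mutant 2 at 185. In class 6, whose members bind class A plexins directly, *Sema6a* stood at 92.9 ± 2.76 and 89.0 ± 4.79 CPM (-0.06, adjusted p = 0.787), with the smallest relative spread of the 31 genes in controls (coefficient of variation 2.97%), and *Sema6d* at 154 ± 19.2 and 146 ± 16.1 (-0.08, adjusted p = 0.873). The 2 less abundant members of class 6 were *Sema6b*, at 12.8 ± 0.843 and 11.7 ± 1.83 CPM (-0.13, adjusted p = 0.783), and *Sema6c*, at 7.64 ± 0.961 and 8.76 ± 1.03 (0.20, adjusted p = 0.584). *Sema7a*, which acts through *Plxnc1* and integrin β1, was measured at 43.9 ± 2.46 and 49.9 ± 12.1 CPM (0.18, adjusted p = 0.716), and its 3 mutants above the highest control were mutants 2 (70.2), 1 (56.4) and 6 (50.9).

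Among the receptors the class B plexins held 1 member above (6.52% of genes tested) and 1 below (4.04%) at an unadjusted p under 0.05. *Plxnb3*, the receptor of *Sema5a*, best known from oligodendrocytes (chrX:73757090-73772514 on the plus strand, GRCm38), ranged from 4.83 to 9.87 CPM in controls, with a median of 8.14. In mutants it ranged from 10.9 to 34.8, with a median of 16.2. All 6 mutants were above all 6 controls, and mutants 2 (34.8) and 1 (23.2) were highest. The means were 7.98 ± 1.86 and 19.3 ± 8.60 CPM (SD, n = 6), 2.42-fold higher in mutants (log2 fold change 1.27, SE 0.26, edgeR p = 0.00032, adjusted p = 0.0746, exact permutation p = 0.00216), which was the largest fold change and the smallest p of the 31 members. Over the 12 fits that each left out 1 mouse, the log2 fold change lay between 1.02 and 1.39 and the edgeR adjusted p between 0.0214 and 0.19. Only the fit without mutant 5, the lowest mutant, passed the threshold (adjusted p = 0.0214, log2 fold change 1.39). Leaving out the lowest mutant widens the difference by itself, and that fit called 356 genes over the whole table instead of 35.

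*Plxnb2*, the abundant class B plexin (chr15:89155549-89180788 on the minus strand, GRCm38), ranged from 324 to 367 CPM in controls, with a median of 345, and from 291 to 323 in mutants, with a median of 296. The groups were separated by less than 1 CPM (323.41 against 323.96), and with upper-quartile normalization they overlapped. The means were 346 ± 14.7 and 303 ± 13.5 CPM, so that mutants held 87.5% of the control level (log2 fold change -0.19, SE 0.05, edgeR p = 0.00323, adjusted p = 0.131, exact permutation p = 0.00216). This difference did not rest on any 1 mouse, since the log2 fold change lay between -0.22 and -0.17 over the 12 fits that each left out 1 mouse. *Plxnb1*, the receptor of *Sema4d*, was measured at 186 ± 10.9 and 180 ± 13.8 CPM (-0.04, adjusted p = 0.904). Per kilobase of exon, *Plxnb3* made up between 1.12% and 2.46% of the class B plexins in controls and between 2.91% and 8.26% in mutants, on means of 1.89% ± 0.472 and 4.83% ± 2.0, and it stayed the least abundant of the 3 in every mouse. Exons of *Sema3b*, *Sema3f*, *Sema4f*, *Plxnb2* and *Plxnb3* share no bases with another annotated gene.

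The class A plexins, the signalling partners of neuropilins, did not pass either threshold. *Plxna4* came nearest, at 49.6 ± 5.10 CPM in controls and 62.9 ± 19.8 in mutants (log2 fold change 0.34, SE 0.17, edgeR adjusted p = 0.535), with 5 of 6 mutants between 55.7 and 96.3, above the highest control (52.6), and mutant 1 at 37.2, below the lowest (39.3). The log2 fold change was 0.18 without mutant 4 and 0.46 without mutant 1 (SE 0.14, edgeR adjusted p = 0.181), and 0.21 without mutants 1, 2 and 4 (SE 0.09, adjusted p = 0.669). *Plxna1* was measured at 189 ± 17.0 and 181 ± 16.3 CPM (-0.06, adjusted p = 0.888), and 10.7% of its exon bases are shared with *Gm26811* on the opposite strand. *Plxna2* stood at 51.3 ± 5.45 and 49.1 ± 9.61 (-0.06, adjusted p = 0.938) and *Plxna3* at 40.2 ± 3.51 and 40.1 ± 6.11 (0.00, adjusted p = 0.998). *Plxnd1* was measured at 362 ± 25.6 and 336 ± 20.5 CPM (-0.11, adjusted p = 0.655), with all 6 mutants below the control median of 364, and *Plxnc1*, the receptor of *Sema7a*, at 27.0 ± 3.24 and 24.4 ± 3.92 (-0.15, adjusted p = 0.746). Both neuropilins had nearly equal means, *Nrp1* at 188 ± 9.57 and 184 ± 15.8 CPM (-0.04, adjusted p = 0.932) and *Nrp2* at 195 ± 22.3 and 186 ± 17.5 (-0.07, adjusted p = 0.874). In *Nrp1* the spread of the mutants came from mutant 1 (153), with the other 5 between 184 and 197.

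Several members with higher means in mutants were high in the mice in which neural and glial markers were high. *Sema3b* was highest in mutants 1 and 2, the mutants with the highest Schwann cell marker sums, and lowest in control 4, the mouse with the lowest sum (624 CPM). *Plxnb3* likewise was highest in mutants 2 and 1 and lowest in control 4 (4.83). *Sema4f* was highest in mutant 4, the mouse with the highest neuron marker sum, whose Schwann cell marker sum (1380) was the lowest of the mutants, and *Sema5b* and *Plxna4* were also highest there. Other values did not follow the markers. In mutant 1, with the next highest neuron marker sum (935), *Plxna4* was the lowest of all mice (37.2 CPM) and *Sema5b* (13.6) lay within the control range. *Sema4a*, *Plxna3* and *Plxnc1*, whose mutant means were lower, were also highest in mutant 4. Control 4 was the lowest mouse in 7 members. A further fit took as covariates the mean log2 CPM of the neuron markers and of the Schwann cell markers, not their summed CPM. It gave *Plxnb3* a log2 fold change of 0.19 (SE 0.20), *Sema3b* -0.04 (SE 0.15), *Sema4f* 0.53 (SE 0.20), *Sema3f* -0.11 (SE 0.10) and *Plxnb2* -0.14 (SE 0.09). That fit called 1 gene (0.00542% of genes tested) and 0 members, each with an adjusted p of 1, and held 1 member, *Sema4f*, at an unadjusted p under 0.05 (2.76%). Without mutants 1, 2 and 4, an alternative chosen after seeing the data, *Plxnb3* had a log2 fold change of 0.81 (SE 0.20, edgeR adjusted p = 0.216), *Sema3b* 0.53 (SE 0.16), *Sema4f* 0.34 (SE 0.13), *Sema3f* -0.22 (SE 0.08) and *Plxnb2* -0.19 (SE 0.07), and 0 members were called (0.18% of genes tested). The 3 remaining mutants did not overlap the controls in *Plxna4*, against 4.07% of genes tested. This was fixed in advance, since mutant 1 was the only mutant not above every control in that gene. The remaining mutants also did not overlap the controls in those 5 members. That too was fixed in advance, since all mutants already lay apart from the controls there. In that fit 7 members had an unadjusted p under 0.05 (6.93% of genes tested). Which cells the reads of these members came from was not tested.

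**Figure D4:**
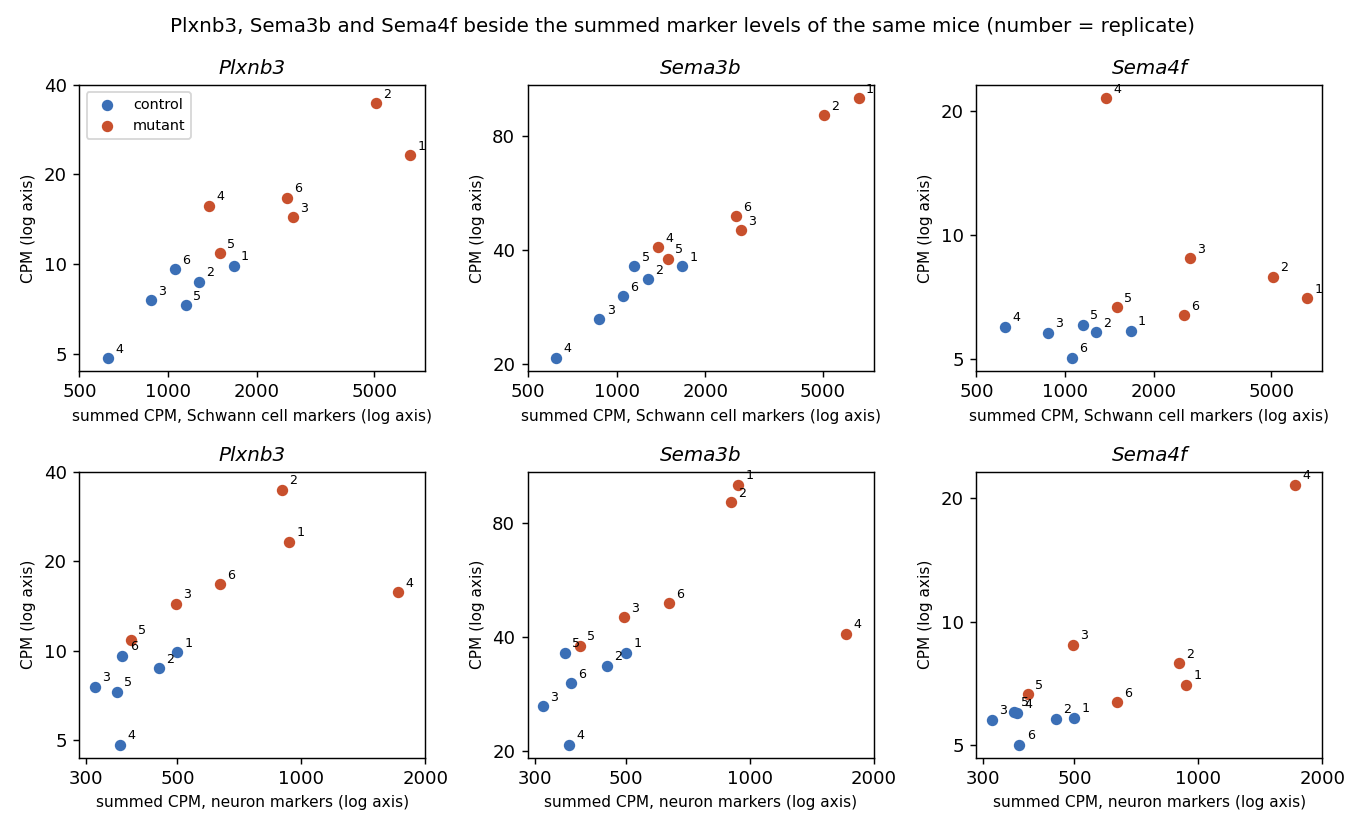
CPM of *Plxnb3*, *Sema3b* and *Sema4f* (vertical, log axis) against the summed CPM of Schwann cell markers (top) and neuron markers (bottom, log axes) in each mouse, with replicate numbers. Blue points are controls and orange points mutants. *Sema3b* and *Plxnb3* are highest in mutants 1 and 2, which have the highest Schwann cell marker sums, and *Sema4f* is highest in mutant 4, which has the highest neuron marker sum (1715).

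Mutants differed among themselves more than controls did. The coefficient of variation between mice was larger in mutants for 24 of 31 members, with a median of 14.4% in mutants and 9.19% in controls, against 14.5% and 12.6% for all genes tested. Mutant 1 was the lowest of all 12 mice in 14 members, among them *Plxna1*, *Plxna2*, *Plxna3*, *Plxna4*, *Plxnb1*, *Nrp1* and *Nrp2*, and the highest in 3. Mutant 2 was the highest in 9 and mutant 4 in 6, and control 4 was the lowest in 7. The same counts were not taken over all genes tested, whose median spread was also larger in mutants.

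**Figure D5:**
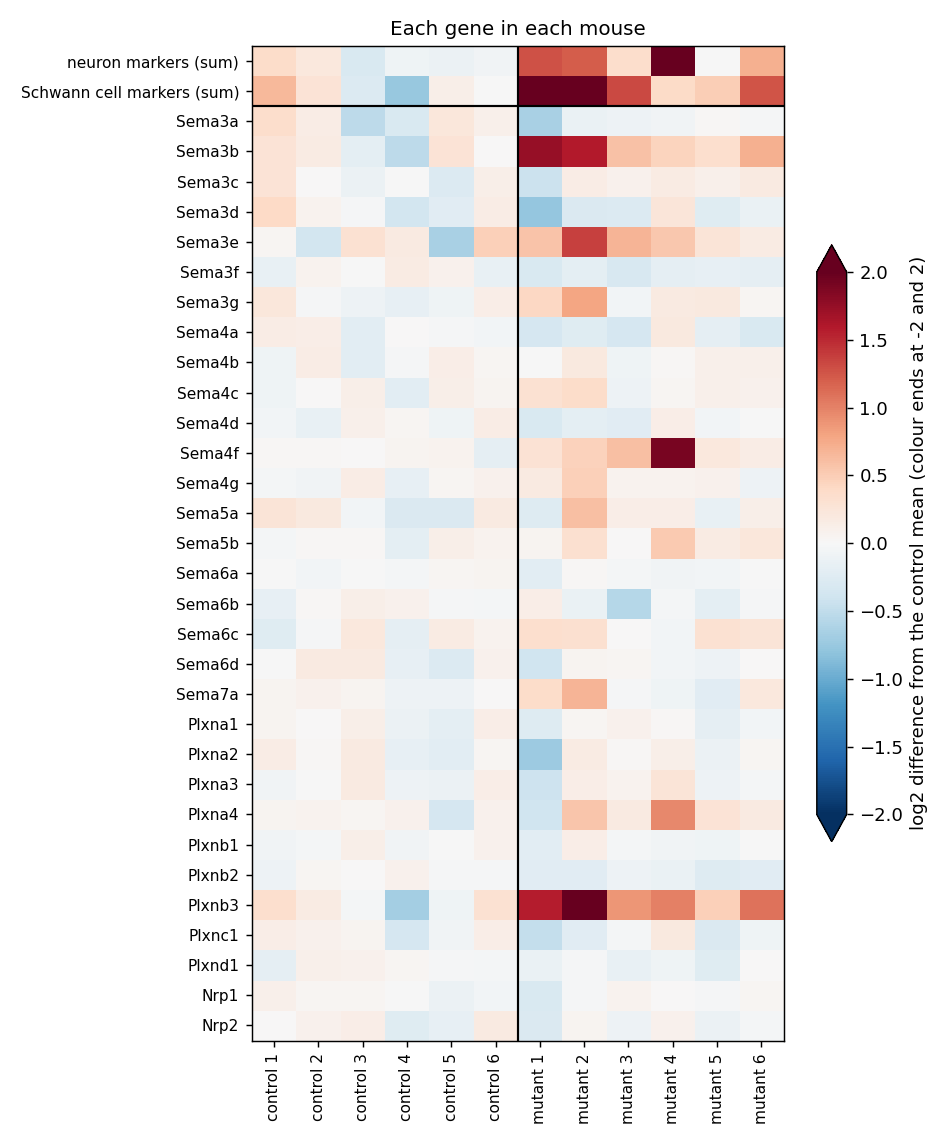
Log2 difference of each gene in each mouse from the mean of the controls, with colours ending at -2 and 2. The top 2 rows are the summed neuron and Schwann cell markers, and the vertical line separates controls from mutants. The rows of *Sema3b* and *Plxnb3* are darkest in mutants 1 and 2, *Sema4f* in mutant 4, and most other rows stay pale in all 12 mice.

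Co-receptors, shared ligands and intracellular effectors of the pathway were read from a list of 53 genes, of which 52 were tested. At the adjusted threshold 0 of 52 were called by edgeR, against 0.19% of genes tested, and 3 by DESeq2 (5.77%, against 3.35%). At an unadjusted p under 0.05, 7 were higher and 4 lower in mutants (21.2%, against 10.6% of genes tested), and 0 had groups that did not overlap, against 0.997%. The median log2 fold change of the list was -0.01, with 22 above and 30 below 0. *L1cam*, a cell adhesion molecule that joins the *Sema3a* receptor, had 0.654 to 3.96 CPM in controls and 2.76 to 58.1 in mutants (log2 fold change 3.07, SE 0.72, edgeR adjusted p = 0.0985). *Crmp1*, a collapsin response mediator that carries the *Sema3a* signal to the cytoskeleton, had 1.56 to 3.71 and 2.73 to 22.8 CPM (1.96, SE 0.48, adjusted p = 0.105). Their highest mutant values belonged to mice with high neuron markers. With the marker covariates the log2 fold changes were 0.36 for *L1cam* and 0.06 for *Crmp1*. Those marker levels themselves differed between the genotypes, and the cause of the differences was not tested.

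*Cntn2*, an axonal adhesion molecule (log2 fold change 1.6, edgeR adjusted p = 0.156), and *Dpysl5*, a relative of *Crmp1* (1.08, adjusted p = 0.216), were each highest in mutant 4. *Mical1*, an enzyme that oxidises actin downstream of plexins, had 14.5 to 20.8 CPM in controls and 18.6 to 30.8 in mutants (0.43, adjusted p = 0.154), and the kinase gene *Fyn* (0.32, adjusted p = 0.261) and *Cdk5r1*, the activator of *Cdk5* (0.55, adjusted p = 0.321), were also higher. The 4 lower were *Vegfc*, a lymphatic growth factor that binds *Nrp2* (-0.22, adjusted p = 0.247), its receptor *Flt4* (-0.22, adjusted p = 0.4), *Rnd1*, a small GTPase that binds plexins (-0.47, adjusted p = 0.274), and *Trem2*, a microglial and macrophage receptor (-0.28, adjusted p = 0.4, named after its value was seen). *Rnd1* ranged from 8.96 to 15.8 CPM in controls and from 5.28 to 10.6 in mutants. Of these 11 genes, 0 passed the edgeR adjusted threshold, their adjusted p lying between 0.0985 and 0.400.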

How the data were processed

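Bulk RNA-seq libraries of 6 mutants and 6 controls at P6 were used. The table deposited by the authors holds raw counts, whole numbers per symbol that were not normalized or pooled. Per the submitters' processing notes, Trimmomatic 0.32, STAR 2.4.2a, HTSeq 0.9.1, DESeq2 1.10.1 and GRCm38.p4 were used, and the annotation and strand setting are not given in the sources used here. The reads were single-end. The authors' own DESeq2 comparison, with fold changes and p-values, was not used.

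Groups and replicate numbers were taken from the sample labels. A minimum mean count of 5 kept 18459 of 28686 genes, which were compared with edgeR 4.0.16, quasi-likelihood F-test (R 4.3.3, robust, TMM, no covariates) on all 12 libraries, with Benjamini-Hochberg adjustment over all genes tested, called at an adjusted p under 0.05. The SE is the log2 fold change divided by the square root of F. Single members were also compared by exact two-sided permutation of log2(CPM + 0.1) over 924 divisions. The scripts were tested on simulated data. Exon lengths and gene positions are from GENCODE M21 (GRCm38), and promoter windows from RefSeq (GRCm38.p6).

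The members, the partner and marker lists were chosen with earlier results of these data known. Every member is given. Values over mice are given for members with an unadjusted p under 0.05 or with groups that do not overlap, the member leading each class per kilobase is described, and of the partner list the 10 smallest p under 0.05 are named. Alternatives were DESeq2 1.42.0, limma-voom (limma 3.58.1), other normalizations and filters, non-robust estimation, the replicate number as a block, marker levels or *Xist* as covariates, leaving out each mouse, and, chosen after seeing the data, leaving out mutants 1, 2 and 4. In all 30 pairs of libraries within a genotype the counts differed beyond sampling noise (chi-square per degree of freedom 13.5 to 71.0), so no 2 were treated as 1 sample. Depth gave each member between 127 and 13093 counts per library.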

Additional observations from a re-analysis of the deposited data

Results flagged for a closer look

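In 12 of 84 groups of 6 mice examined, the highest or lowest mouse stood apart from the other 5 by more than the critical value of Dixon's test, 9 of them among 62 groups of the members. The nominal rate of the test is 1 in 20 for independent groups of normal values. These groups share the same mice, and the partner genes were taken by their small p, so that rate does not apply directly. The share over all genes tested was not computed. Mutant 1 was low for *Sema3a* at 20.6 CPM (the other mutants 29.4 to 32.6), for *Sema3c* at 34.6 (49.7 to 53.1) and for *Nrp1* at 153 (184 to 197). Mutant 2 was high for *Sema3e* at 15.1 CPM (6.50 to 9.38) and for *Sema5a* at 185 (102 to 133). Mutant 4 was high for *Sema4a* at 6.52 CPM (4.46 to 4.98) and for *Sema4f* at 21.6 (6.38 to 8.79). Among the partner genes mutant 4 was high for *L1cam* at 58.1 CPM (2.76 to 21.3), for *Cntn2* at 37.0 (4.76 to 12.1) and for *Dpysl5* at 43.9 (8.53 to 18.2). Among controls, control 6 was low for *Sema4f* at 5.02 CPM (5.78 to 6.04) and control 5 for *Plxna4* at 39.3 (50.7 to 52.6).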

How the results depend on the processing

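The number of genes called among all tested was 35. It was 619 with DESeq2, 19 with limma-voom, 57 with no filter, 131 with the replicate block, 1 with marker covariates and 23 with *Xist* as a covariate, and between 14 and 356 when each mouse was left out, the highest without mutant 5. Members called were 0, against 4 with DESeq2, 1 with the replicate block and 0 to 1 when each mouse was left out (*Plxnb3* without mutant 5). Partner genes called were 0, against 3 with DESeq2 and 0 to 2 when each mouse was left out. With marker covariates 1 member had an unadjusted p under 0.05 instead of 8 (6 to 11 when each mouse was left out). The median log2 fold change of the members ranged from -0.049 to 0.040, above 0 without mutant 1. With upper-quartile normalization 3 members had groups that did not overlap.

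The log2 fold change changed sign with marker covariates in *Sema3b* (-0.040), *Sema3g* (-0.10), *Sema4c* (-0.049), *Sema4d* (0.025), *Sema4g* (-0.020), *Sema5a* (-0.24), *Sema7a* (-0.22), *Plxna3* (0.019), *Nrp1* (0.022), *Fyn* (-0.039) and *Cdk5r1* (-0.11), with a mean count of at least 20 in *Plxna3* (0.0013), and without mutants 1, 2 and 4 in *Sema7a* (-0.0024) and *Nrp1* (0.024). When each mouse was left out it crossed 0 in *Sema3c* (-0.0043 to 0.13), *Sema5a* (-0.010 to 0.17), *Plxna2* (-0.11 to 0.040), *Plxna3* (-0.060 to 0.067) and *Nrp1* (-0.057 to 0.013). None of these genes passed the adjusted threshold in edgeR. *Jag1* had an adjusted p of 0.0828 with marker covariates (log2 fold change -1.41). Over all alternatives, 686 values of members kept their direction and side of the threshold, 21 changed sign and 6 newly passed the threshold. The causes were not tested.

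The replicate numbers were not taken to pair the mice. Of 6 same-numbered pairs, 3 deviated together with a correlation over 0.1 (range -0.19 to 0.27) and 2 correlated best with their own number. These values cannot decide whether the numbers pair the mice. The litter of each mouse is not given in the sources used here, so no fit included it. With the replicate block *Plxnb3* had a log2 fold change of 1.21 and an adjusted p of 0.0287. The least abundant members, such as *Sema3e* and *Sema4a*, rest on the fewest counts and so have the largest relative counting error. DESeq2 gave no adjusted p to 83 genes.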
